A study of Mus musculus with 12 samples.

Results

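Neurons made from mouse embryonic stem cells were set against the embryonic brain regions that such cultures are meant to resemble. The comparison takes all 8 culture arrays of the series, at day 16 of differentiation, and the 3 arrays of telencephalon from E15 embryos, so 11 of the 12 arrays. The remaining array, of E15 midbrain, was kept apart and is used only to describe the genes found. A gene was called when every culture lay at least 1 log2 unit above, or at least 1 log2 unit below, every telencephalon array. Of 23839 genes tested, 238 were called higher in the cultures and 569 lower, 807 in all.

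The cultures are male and of 129/Ola background, and all began in a WNT inhibitor (53AH, 2.5 µM) and a BMP inhibitor (LDN193189, 0.25 µM). WiBi_0-11 received the inhibitors until day 11 and WiBi_0-16 until day 16. CHIR_8-16 had the inhibitors until day 8 and then the WNT agonist CHIR, at 3 µM, until day 16. CHIR_11-16 had the inhibitors until day 11 and the agonist from day 11 to day 16, at a dose not given in the sources used here. Each culture group has 2 arrays. The tissues, cortex, hippocampus, ventral telencephalon and midbrain, are from Sv129s6 embryos labelled as mixed for sex, with 1 array each. Per the labels each RNA was pooled from 3 sets of experiments, so an array is a pool and the spread between arrays may be partly technical.

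The embryonic telencephalon gives rise to the cerebral cortex and hippocampus dorsally and to the striatum and most cortical interneurons ventrally. Its tissue holds far more than neural cells, because vessels, blood, microglia and meninges come with the dissection, and these arise largely outside the neural tube. A stem cell culture patterned to telencephalon forms neural progenitors and neurons by the same transcription factors, but has no circulation, no afferent axons and no surrounding meninges. WNT signalling is a dorsal and posterior cue in the forebrain, so WNT inhibition favours the anterior fate and a late agonist the medial, hippocampal one.

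Side and array batch cannot be told apart in this comparison. All tissue arrays lay on slide 1. Slide 2 carried the first replicate of each culture group and slide 3 the second, and both were scanned in another session than slide 1. Strain, sex and in vitro against in vivo life differ along the same line. Of these only the 2 culture slides could be set against each other: 113 of the 23839 genes (0.474%) lay at least 1 log2 apart between all 4 cultures of slide 3 and all 4 of slide 2, 91 higher and 22 lower on slide 3. Of the 807 called genes 5 (0.62%) were among them, a share close to that of all genes. An effect of slide 1 itself and the difference between culture and tissue cannot be told apart.

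The sex label of the tissues did not match their RNA. The Y-linked translation factor gene Eif2s3y read 2.95 in cortex, 3.57 in hippocampus and 3.33 in ventral telencephalon and was not above background on any of the 3, or on the midbrain array at 4.13. The Y-linked helicase gene Ddx3y read 2.63 to 3.04 there and was likewise dim. In the cultures the lowest, median and highest readings were 11.86, 12.11 and 12.58 for Eif2s3y and 9.79, 10.07 and 10.18 for Ddx3y. Xist, the RNA that coats the inactive X chromosome of females, read 10.79 to 10.95 in the telencephalon and 10.67 in midbrain, and 3.40 to 3.83 in the cultures, where no array was above background. Of the 9 Y-linked genes tested 3 were called higher in the cultures and 0 lower, the third being Uty (3.33 to 3.72 in the telencephalon, 5.88 to 6.56 in the cultures). Eif2s3y, Ddx3y and Xist thus went against a mixed-sex label on all 4 tissue arrays. Uty read 6.51 on the midbrain array by this probe and 2.67 by its other probe.

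Between 59.1% and 71.2% of probes were well above background, the lowest share being that of ventral telencephalon, and 0 spots were saturated. Over the 23839 genes each culture correlated with the 3 telencephalon arrays at Pearson's r between 0.925 and 0.951. Ventral telencephalon was the nearest tissue for all 8 cultures. With midbrain the cultures correlated at 0.9227 to 0.9425, which overlaps the telencephalon range. In every WiBi culture midbrain came second, above cortex and hippocampus, and in every CHIR culture it came below hippocampus. Cultures correlated with each other at 0.963 to 0.992 and the telencephalon arrays at 0.975 to 0.980. These values are across genes, which are not independent replicates, and arrays that correlate most share slides and strain.

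**Figure D1:**
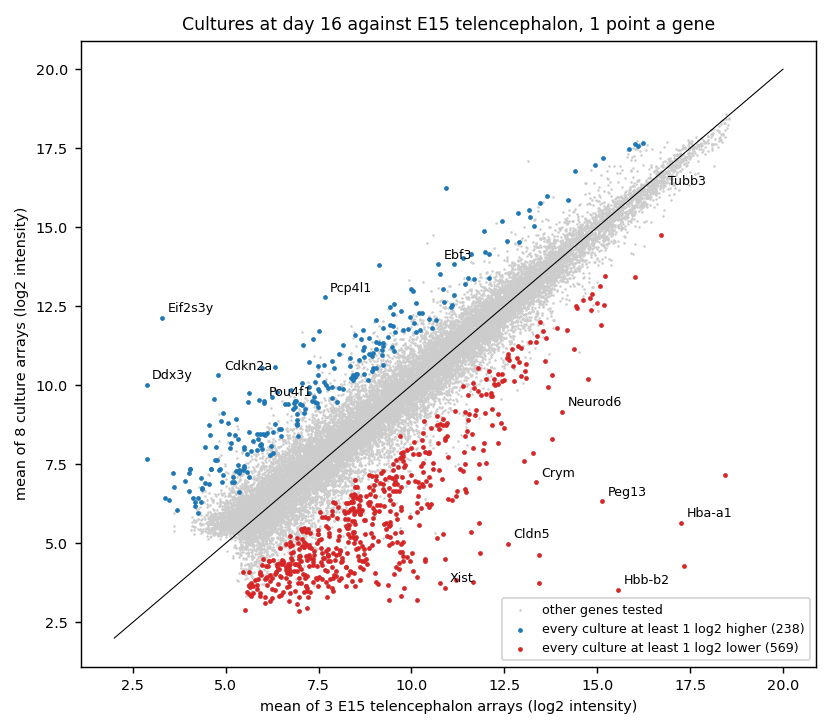
Mean log2 intensity of each of 23839 genes on the 8 culture arrays (vertical) against the 3 E15 telencephalon arrays (horizontal), with genes called higher in blue (238) and lower in red (569). The line marks equal values. Haemoglobin genes lie farthest below it, and the Y-linked genes Eif2s3y and Ddx3y lie far above it.

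The called genes were 0.998% of those tested in the higher direction and 2.39% in the lower, and the median difference over all genes was 0.05. The gap, the distance between the nearest culture and the nearest tissue array, had a median of 1.30 among the genes called higher and 1.65 among those called lower, and reached 8.29 and 11.32. Just inside the threshold lay the polarity gene Crb1 (gap 1.0047, higher) and Ifi35 (1.0012, lower), and just outside it Misp3 (0.9985, higher) and Mthfsl (0.9988, lower). Above background on all 11 arrays were 180 of the 238 and 267 of the 569. For 31 genes called higher no tissue array was above background, and for 140 called lower no culture was, so that their size is a lower bound. The ventral telencephalon array limited the count, since without it 601 genes were called higher and 794 lower. A looser test, limma on the mean of the 8 cultures against the mean of the 3 tissues with slide as a random block, called 3895 genes (16.3%) at a Benjamini-Hochberg adjusted p under 0.05, 2051 higher and 1844 lower. Of the separated genes 232 of 238 and 568 of 569 were among them; both rules use the same contrast.

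Red blood cell genes were lower in the cultures. Of 15 erythroid genes listed 10 were tested and 8 lay lower in every culture, 0 higher, with a median difference of -3.98. Genes could pass the filter on the 3 tissue arrays alone, and among the 4 with signal on all 11 arrays 2 were lower. Hba-a1, an adult alpha globin gene, read 16.92 in cortex, 17.62 in hippocampus and 17.21 in ventral telencephalon. In the cultures it read 5.03 at the lowest, 5.65 in the median and 6.33 at the highest, a difference of 3109-fold in the means. Its beta globin partner Hbb-b1 read 13.18 to 13.59 in the telencephalon and 2.97 to 4.85 in the cultures, none above background, at least 644-fold lower. These genes belong to families of near-identical copies whose probes may share signal, so the globins are best read together.

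The other erythroid genes had the same layout on a smaller scale. Alas2, the first enzyme of haem synthesis in red cells, read 10.98, 11.59 and 11.00 in the 3 regions against 3.40 to 4.32 in the cultures, at least 139-fold lower. Ahsp, which stabilises free alpha globin, was at least 39.6-fold lower. The embryonic globin Hbb-y read 9.64 to 9.88 in the tissues and 4.15 to 5.70 in the cultures. Slc4a1, the band 3 anion exchanger of the red cell membrane, was 4.97-fold lower. Not called were Tspo2 and the embryonic globin Hbb-bh1, which differed by -0.38 and 0.97 with overlapping values. Over the list, called genes included, the mean level was 4.80 to 5.40 on the cultures and 9.68 to 9.89 on the telencephalon arrays, which restates the calls. As in any bulk sample, fewer cells of a type and less RNA per cell cannot be told apart.

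Microglia and macrophage genes were lower in every culture for 14 of 19 tested, with 0 higher and a median difference of -3.38. Here too the filter admits genes on the tissue arrays alone, and of the 7 with signal on all 11 arrays 3 were lower. Cx3cr1, the fractalkine receptor of microglia, read 10.16 in cortex, 10.50 in hippocampus and 10.44 in ventral telencephalon. The cultures lay between 4.09 and 4.90 with a median of 4.49, and 0 of the 8 were above background. The complement gene C1qc was at least 41.8-fold lower, the signalling adaptor Tyrobp at least 54.2-fold, the lysosomal protease Ctss at least 62.4-fold and the lipid receptor Trem2 at least 32.2-fold. For 10 of the 19 genes no culture was above background.

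Some macrophage genes separated less clearly or not by the rule. Csf1r, the receptor on which microglia depend, was called by its brightest probe, at 12.14 to 12.36 in the tissues and 8.10 to 11.07 in the cultures, but by 1 of its 3 probes only. Another probe was lower without overlap but short of the rule, at 7.01 to 7.84 against 4.73 to 6.12. The last one overlapped, at 9.87 to 9.98 against 9.45 to 10.32. Cd68, a lysosomal glycoprotein gene also used outside macrophages, read 9.59 to 11.45 in the cultures and 9.01 to 9.33 in the tissues (limma adjusted p = 0.057). Itgam read about the same on both sides, -0.14 in the difference (limma adjusted p = 0.84). The list as a whole had mean levels of 5.61 to 5.93 on the cultures and 8.83 to 9.27 on the telencephalon arrays, with no overlap.

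Vessel genes followed. In the endothelial list 12 of 19 tested genes lay lower in every culture and 0 higher, median -2.50. Among the 10 with signal on all 11 arrays 4 were lower, since others passed the filter through the tissue arrays alone. Cldn5, the tight junction protein of brain endothelium, read 12.23 in cortex, 12.81 in hippocampus and 12.76 in ventral telencephalon. Among the cultures it ran from 4.58 through a median of 4.90 to 5.56, at least 195-fold lower in the means, with 4 of the 8 above background. Cdh5, the cadherin of endothelial junctions, was at least 30.9-fold lower (1 of 8 cultures above background), the VEGF receptor Flt1 17.991-fold, the transcription factor Sox18 at least 14.6-fold (2 of 8) and the angiopoietin receptor Tek at least 8.93-fold. Slco1c1, a thyroid hormone transporter of brain vessels, was 4.60-fold lower.

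Outside the list, the amino acid transporter gene Slc38a5 was at least 184-fold lower. Cd34, a surface glycoprotein of endothelial and blood stem cells, read 11.68 to 12.02 in the tissues and 5.29 to 6.44 in the cultures, 71.9-fold lower. Cd93, singled out after its values were seen, was at least 142-fold lower (4 of 8 cultures above background). By contrast the VEGF receptor Kdr read 11.57 to 12.87 in the cultures, around the 12.31 to 12.74 of the tissues, and Pecam1 differed by -0.35 (limma adjusted p = 0.14). Egfl7 stood just short of the rule at -1.55 (limma adjusted p = 0.00091).

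Mural cell genes were lower in part. Of 10 pericyte and smooth muscle genes tested 4 were lower in every culture and 0 higher, median -2.23; requiring signal on all 11 arrays left 1 of 7. Rgs5, a pericyte regulator of G protein signalling, read 9.89, 10.31 and 10.23 in the tissues against 2.30 to 3.76 in the cultures, at least 72.2-fold lower. The potassium channel subunits Abcc9 and Kcnj8, which work together in pericytes, were at least 17.4-fold (1 of 8 cultures above background) and at least 12.9-fold lower, and the proteoglycan gene Cspg4, shared with oligodendrocyte precursors, 8.98-fold.

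Fibroblast collagens did not separate. Col1a1 read 7.74 to 11.59 in the cultures and 9.12, 11.24 and 8.43 in the tissues (difference 0.44, limma adjusted p = 0.82). In the meningeal list 2 of 15 were lower, the small proteoglycan gene Ogn (at least 9.63-fold, 2 of 8 cultures above background, not called with normexp and quantile scaling) and Crym, which is also on the deep-layer list, and the median was -0.11. The basement membrane collagen genes Col4a1 and Col4a2 differed by -1.84 and -1.61 (limma adjusted p = 0.0098 and 0.0027) without meeting the rule, and Col5a2 did, at least 8.62-fold lower with 6 of 8 cultures above background. Over the 21 matrix genes tested 1 was called lower and 0 higher, median -0.68.

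**Figure D2:**
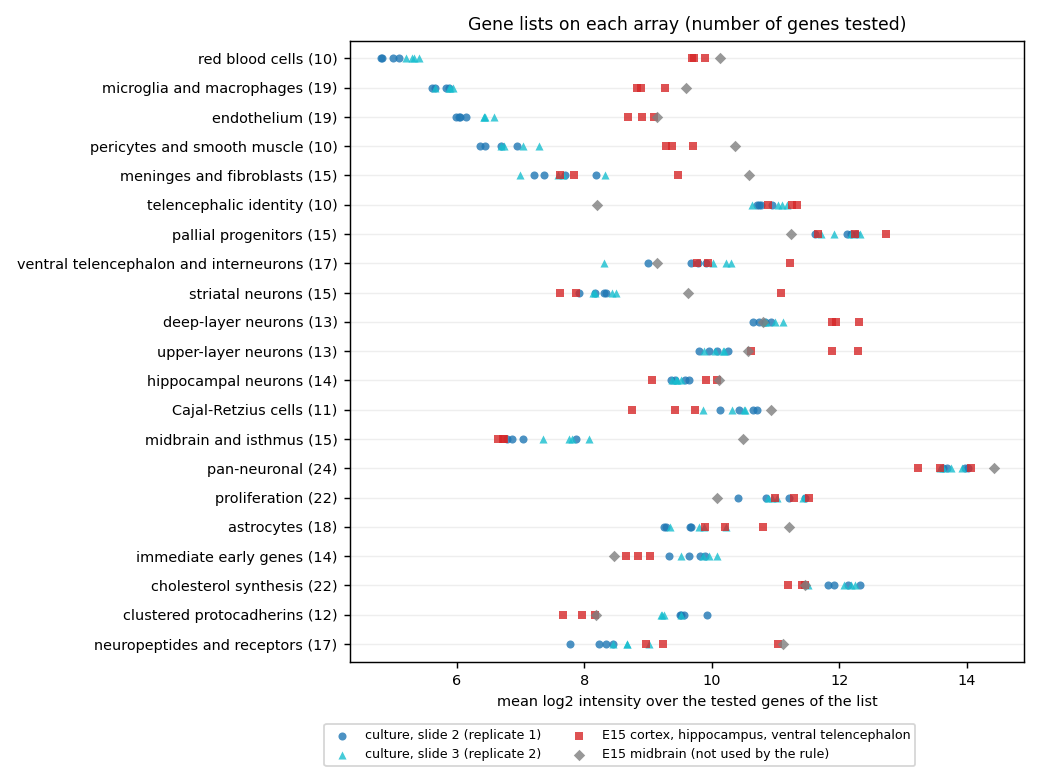
Mean log2 intensity over the tested genes of 21 lists on each array, with cultures of slide 2 as circles, those of slide 3 as triangles, E15 telencephalon as squares and E15 midbrain as diamonds. The red blood cell, microglia, endothelial and pericyte lists lay apart on the 2 sides, whereas pan-neuronal, progenitor and proliferation lists overlapped. The means include the called genes, so lists that lie apart are not a result beyond the calls.

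Of the 10 telencephalic identity genes tested, 15 pallial progenitor genes, 24 pan-neuronal genes and 22 proliferation genes, 0 were called in either direction. With 0.998% of all genes called higher and 2.39% lower, few calls would be found in lists of this size, so the count says little about them. The medians were -0.54, 0.01, -0.04 and -0.19. Under limma, which called 16.3% of all genes, 1 telencephalic gene was called higher and 2 lower. The other lists had 1 called lower each and 0 higher. Tubb3, the neuronal beta tubulin, differed by -0.61 (limma adjusted p = 0.02) and Map2 by -0.04 (adjusted p = 0.91). The proliferation antigen Mki67 read 12.90 to 13.91 in the cultures and 13.23 to 13.64 in the tissues (adjusted p = 0.92).

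Most other regional factors overlapped between the sides. Tbr1, a factor of early glutamatergic cortical neurons, read 13.90 to 14.79 in the cultures and 15.11, 14.25 and 15.19 in the tissues, against 7.88 in midbrain (adjusted p = 0.51). Pallial Emx2 and Pax6 differed by 0.03 and -0.66 (adjusted p = 0.98 and 0.46), and Dlx2, a factor of ventral progenitors, by -0.20 with cultures spread from 9.21 to 13.88. Prox1, of dentate granule cells, and Gfap, of astrocytes, differed by 0.18 and -0.06 (adjusted p = 0.89 and 0.97). The WNT target Axin2 differed by -0.08, the glucose transporter Slc2a1 by -0.84 and the oligodendrocyte factor Olig2 by 1.0 (adjusted p = 0.94, 0.39 and 0.62). The pluripotency factor Pou5f1 did not reach the filter on dim probes, and none of 11 pluripotency genes tested was called. With 0.998% of all genes called higher, that count says little about the list. Limma called 2 of the 11 higher and 0 lower, beside 16.3% of all genes in either direction.

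Neurod6, Tiam2, Mpped1 and Zbtb18 were lower in every culture; the first pair is named for its gaps, the second was picked after its values were seen, and none is on a list. Neurod6, a basic helix-loop-helix factor of differentiating pyramidal neurons, read 14.91 in cortex, 14.10 in hippocampus and 13.17 in ventral telencephalon. In the cultures it was 8.60 at the lowest, 9.17 in the median and 9.62 at the highest, 30.0-fold lower. Midbrain read 9.14, within the culture range. Tiam2, an activator of the GTPase Rac in growing neurites, read 14.68, 13.64 and 13.002 against 7.60 to 9.01, 44.9-fold lower, with midbrain at 7.97. For these genes and for Mpped1 (9.21-fold) and the repressor Zbtb18 (5.47-fold) the midbrain value lay within or below the culture range.

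Layer genes differed unevenly. Among 13 deep-layer genes tested 2 were lower in every culture, Bcl11b and Crym, and 0 higher, median -0.80. Bcl11b, which directs subcortical projection, read 13.89, 13.50 and 14.41 in the tissues and 11.42 to 12.16 in the cultures, 4.33-fold lower, by 1 of 2 probes. Its other probe was lower without overlap but just short of the rule, at 12.71 to 13.59 against 10.96 to 11.75. Crym, a thyroid hormone binding protein, read 13.29, 15.64 and 11.13 against 4.72 to 8.06, at least 85.6-fold lower with 7 of 8 cultures above background. Of 13 upper-layer genes 0 were called and the median was -1.06, with 12 of the 13 lower in the means and 5 called lower by limma. Over all 23839 genes limma called 1844 lower. Inhba and Pou3f1 differed by -4.22 and -2.85 (adjusted p = 0.0077 and 0.023).

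Of 17 genes of ventral telencephalon and interneurons 2 were lower in every culture, the peptide genes Sst and Npy, and 0 higher, with 5 of the 17 higher in the means. Sst, somatostatin, read 12.11 in cortex, 11.79 in hippocampus and 15.16 in ventral telencephalon against 6.41, 7.33 and 9.36 as the lowest, median and highest culture, 42.6-fold lower. Npy, neuropeptide Y, read 12.46, 10.28 and 12.70 against 4.66, 7.24 and 9.03, at least 26.8-fold lower with 6 of 8 cultures above background. In the list of 17 neuropeptide and receptor genes, which also holds both of these, 4 were lower and 0 higher; the other two were cholecystokinin, Cck (7.06-fold), and Adcyap1, the gene of the peptide PACAP (at least 8.54-fold, 7 of 8 cultures above background). Requiring signal on all 11 arrays left 2 of 14. The GABA synthesis gene Gad1, in contrast, read 8.30 to 11.62 in the cultures and 10.33 to 13.06 in the tissues (adjusted p = 0.59). Of the 15 striatal genes 1 was called lower, Ppp1r1b, the dopamine target known as DARPP-32, at 12.25, 10.23 and 12.45 against 7.89 to 8.89. Among hippocampal genes 2 of 14 were called lower, Kctd4 (at least 12.9-fold, 4 of 8 cultures above background) and Nr4a2 (4.93-fold, not called with normexp and quantile scaling or with the mean of its probes), and 0 higher.

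**Figure D3:**
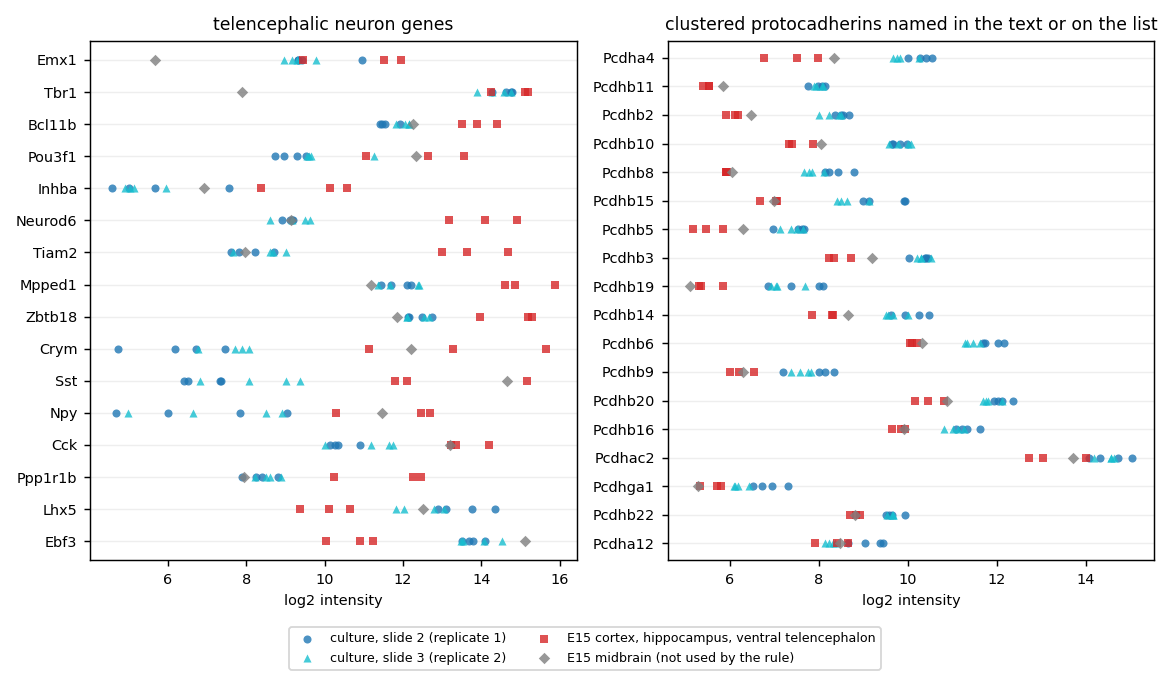
Log2 intensity on each array of 16 telencephalic neuron genes (left) and 18 clustered protocadherin genes (right), with symbols as in the plot of lists. Neurod6 and Tiam2 in the cultures lay beside midbrain, and most protocadherins were highest in the cultures.

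Some Cajal-Retzius genes were higher in the cultures. Cajal-Retzius cells are early neurons of the cortical surface that secrete reelin. Of 11 tested 2 were called higher, Lhx5 and Ebf3, and 0 lower, with a median difference of 1.15; without ventral telencephalon 4 were higher and 1 lower. Ebf3 read 10.04, 11.22 and 10.89 in the tissues and 13.47, 13.73 and 14.53 as the lowest, median and highest culture, 8.67-fold higher. Lhx5 read 9.37, 10.66 and 10.10 against 11.82 to 14.36, 7.63-fold higher. Reelin itself, Reln, read 8.49, 10.10 and 8.39 in the tissues and 9.47 to 10.84 in the cultures (1.15, adjusted p = 0.14). Both called factors also mark neurons outside the telencephalon, and midbrain read 15.12 for Ebf3, above every culture, and 12.50 for Lhx5, within their range.

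Some factors of more posterior territory were higher in the cultures than in telencephalon. Pou4f1, a factor of midbrain and sensory neurons, read 6.13, 6.03 and 5.92 in the telencephalon, 12.47 in midbrain and 8.55, 9.26 and 11.57 as lowest, median and highest culture, 11.0-fold above telencephalon. The highest value was that of CHIR_8-16 replicate 2. Tfap2b read 4.85 to 5.80 in the telencephalon, 14.72 in midbrain and 6.93 to 10.76 in the cultures. The homeobox genes Irx5 (5.64 to 7.81) and Phox2a (5.63 to 7.28), and Foxa2 (5.0 to 8.83), a factor of the floor plate were above background on 0 of the 3 telencephalon arrays. The filter on dim probes admits such genes only when all 8 cultures are above background. For Foxa2 the limma adjusted p was 0.11, and it was not called with dim values raised to the lowest detected value. With normexp and quantile scaling Foxa2, Irx5, Phox2a and Tfap2b were not called. Of 15 midbrain genes 2 were higher and 1, Nr4a2, lower, median 1.09. In the means 9 of the 15 were higher and 6 lower. En2, Gata3 and Pax7, picked among the higher ones, differed by 1.59, 1.61 and 1.82 (adjusted p = 0.11, 0.063 and 0.027), all far below the midbrain array. Th (9.04 to 10.18 in the cultures, 9.76 to 10.46 in the telencephalon) and Pitx3 (6.21 to 6.81, 6.61 to 6.86) overlapped between the sides. The list mean was 6.79 to 8.06 on the cultures, 6.64 to 6.73 on the telencephalon arrays and 10.49 on midbrain.

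Against the midbrain array, which the calls did not use, 155 of the 238 genes called higher were at least 1 log2 below every culture too, and 17 lay within or above the culture range. Among the 569 called lower 482 were at least 1 log2 above every culture in midbrain as well, and 20 lay within or below the culture range. The latter held Neurod6, Tiam2, Mpped1, Zbtb18, Ppp1r1b, the deiodinase gene Dio2 (14.2-fold lower), the melanin enzyme gene Dct (at least 54.6-fold, 1 of 8 cultures above background) and Sema3c (5.27-fold), a guidance cue. With midbrain counted among the tissues, 8 of the 10 erythroid, 14 of the 19 microglial and 13 of the 19 endothelial genes were called lower. For a given probe an added tissue can only take calls away. The endothelial count, 12 without midbrain, could rise because the filter and the choice of brightest probe were redone with midbrain included. The midbrain array shares slide 1 with the telencephalon arrays, so these 4 tissues are compared within 1 slide.

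**Figure D4:**
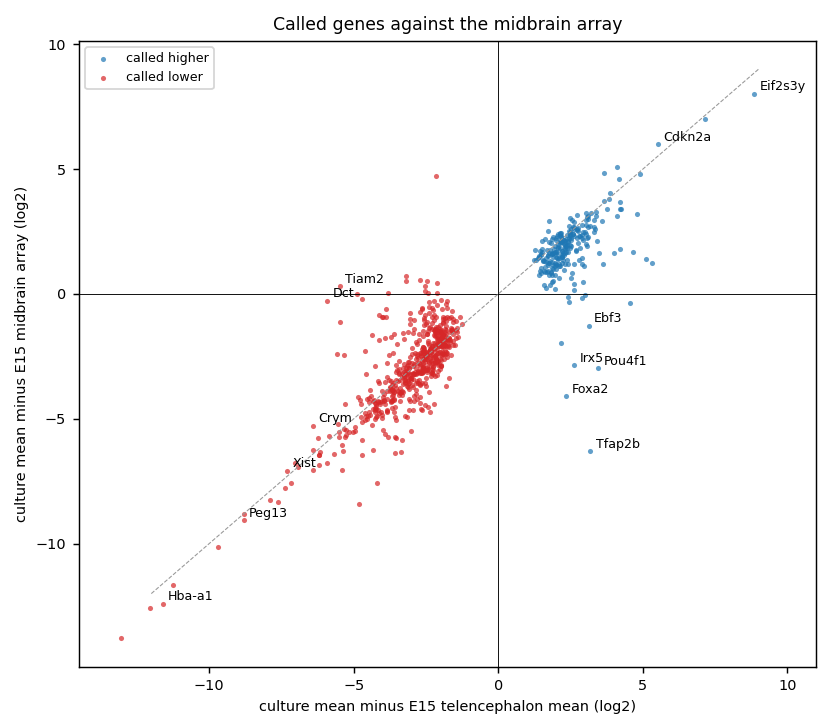
For each called gene, the culture mean minus the E15 telencephalon mean (horizontal) and minus the E15 midbrain array (vertical), both in log2. Points near the dashed line differ alike from both tissues; Tfap2b, Foxa2 and Pou4f1 were higher than telencephalon but lower than midbrain, and Tiam2 and Dct lay near 0 against midbrain.

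Among the named genes higher in the cultures, those with large gaps outside the Y chromosome had diverse functions. Cdkn2a, the locus of the cell cycle inhibitors p16 and p19Arf, read 4.70, 5.04 and 4.67 in the tissues, none above background, and 9.31, 10.13 and 12.02 as lowest, median and highest culture, at least 45.4-fold higher. Gpat2, a glycerolipid acyltransferase gene best known from testis, read 6.33, 5.97 and 6.72 against 10.29 to 10.97, 18.995-fold higher. Pcp4l1, a calmodulin-binding peptide gene, read 5.74, 8.57 and 8.67 against 12.17 to 13.38, and 11.38 in midbrain. Mid1, an X-linked microtubule-associated ubiquitin ligase, read 7.04, 7.46 and 6.78 against 10.30 to 12.08, by both of its probes. Kcnk9, a background potassium channel gene, was 25.2-fold higher, the heparan sulphate proteoglycan gene Sdc4 at least 16.0-fold and Trim71, a regulator of early developmental timing, at least 9.90-fold. The posterior homeobox gene Hoxb13, not used in brain patterning, read 6.29 to 9.04 against 2.63 to 4.13, and was not called with normexp and quantile scaling.

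Clustered protocadherin genes were higher in the cultures in part. These cell surface proteins are chosen in combinations by each neuron and serve in self-avoidance. Of the 12 listed genes tested 5 were called higher and 0 lower, all 12 were higher in the means, and the median difference was 1.51. In a wider count, made after the values were seen, 11 of all 31 tested alpha, beta and gamma cluster genes were called higher and 0 lower, 28 were higher in the means, and the median was 1.27. Pcdhb11 read 5.41, 5.53 and 5.52 in the tissues, 5.85 in midbrain and 7.77, 8.02 and 8.13 as lowest, median and highest culture, 5.69-fold higher. Pcdha4 was 6.39-fold, Pcdhb2 5.06-fold and Pcdhb10 4.92-fold higher. Neighbouring members such as Pcdhb20 and Pcdhb16 missed the rule at 1.5 and 1.37 (limma adjusted p = 0.0016 and 0.0015). Members are similar in sequence and share a genomic cluster, so their probes are not independent. With midbrain among the tissues 3 of the 12 were called, and likewise 3 with normexp and quantile scaling.

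A few activity and stress genes were called higher in the cultures, beside 0.998% of all genes tested. Of 14 immediate early genes 2 were called higher and 0 lower, median 0.96; without ventral telencephalon 4 were higher and 1 lower. Fos, induced within minutes by depolarisation or handling, read 5.39, 6.56 and 6.16 in the tissues and 8.92, 9.32 and 10.40 as lowest, median and highest culture, 10.5-fold higher. Egr1 read 7.71, 7.70 and 9.05 against 10.10 to 12.21, 8.68-fold higher, and was not called with normexp and quantile scaling. Fosl2, of the same family as Fos, went the other way at -2.79 (limma adjusted p = 0.0077), with all cultures below all tissues. Of 19 genes of the amino acid and endoplasmic reticulum stress response 2 were higher, the pseudokinase Trib3 (6.96-fold) and the transcription factor Cebpb (4.92-fold). Of 15 oxidative stress genes 1 was higher, the haem oxygenase Hmox1 (4.65-fold), by 1 of its 2 probes. A single call in a list of 15 is not a result about the list.

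Among 22 cholesterol synthesis genes 0 were called by the rule, but 18 were higher in the means and limma called 8 higher and 0 lower. Over all 23839 genes limma called 2051 higher and 1844 lower. The median of the list was 0.69, beside 0.05 over all genes. Hsd17b7, an enzyme of the pathway, differed by 1.88 (adjusted p = 0.0026). Of 23 glutamate and GABA receptor and transporter genes 0 were called and the median was 0.68. Limma called 3 higher and 1 lower, close to its 16.3% of all genes, so this count is not a result about the list. The vesicular glutamate transporter Slc17a6 was higher by 1.28 (adjusted p = 0.0086) and Slc17a7 lower, at -1.66 (adjusted p = 0.036). The third transporter of this kind, Slc17a8, is not on the list and was called higher just inside the threshold, at 9.95 to 10.67 in the cultures and 8.59 to 8.94 in the tissues, but not with normexp and quantile scaling. Ribosomal proteins (21) and mitochondrial respiration genes (21) had 0 called by the rule and 0 by limma, with medians of -0.22 and 0.02. At an unadjusted limma p under 0.05 there were 2 of each list, and limma without the block called 3 and 2.

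The other lists had few members beyond the rule, and 22 of the 53 lists had none. In the Hedgehog list of 13 the antagonist Hhip and Foxa2 were higher and the co-receptor Cdon lower (7.60-fold, not called with the mean of its probes or with midbrain among the tissues), and in the Notch list of 15 the ligand Jag1 was higher (3.40-fold). Hhip and Jag1 were not called with normexp and quantile scaling. Among 23 axon guidance genes Sema3c and the ephrin receptor Epha4 (4.87-fold) were lower. Lower too were 1 of 18 astrocyte genes, the amino acid transporter Slc7a10 (not called with normexp and quantile scaling), 1 of 11 muscle genes, the cardiac actin Actc1 (at least 18.2-fold, 2 of 8 cultures above background), 1 of 12 interferon genes, Oasl2, and 1 of 20 hypoxia and glycolysis genes, Ndrg1 (6.12-fold). With 2.39% of all genes called lower, 1 call in a list of this size is not a result about the list. Requiring signal on all 11 arrays left 0 astrocyte, muscle and interferon genes lower. The WNT target (13), BMP target (12), FGF (14), p53 target (16), glucocorticoid target (12), fatty acid (12), histone (12) and voltage-gated channel (19) lists had 0 called in either direction. With 0.998% of all genes called higher and 2.39% lower, these counts say little about the lists. Limma, at 16.3% of all genes, called 4 histone genes lower and 1 higher, 4 p53 targets higher and 3 BMP targets lower. It called 3 channel genes lower and 1 higher, 1 FGF gene higher, and 1 fatty acid and 1 glucocorticoid gene each way. Among WNT targets it called 0.

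Several noncoding RNAs were among the called genes and their array probes are printed, since each level rests on 1 such 60-base probe and probes of 1 gene can differ. Coordinates are mm9, as listed with the arrays, and all 5 lie on the minus strand. Xist is at chrX:100656289-100656348, H19 at chr7:149761756-149761815, Peg13 at chr15:72636072-72636131, Malat1 at chr19:5795713-5795772 and Firre at chrX:47911457-47911516.
Xist: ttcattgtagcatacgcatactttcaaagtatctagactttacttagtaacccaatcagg
H19: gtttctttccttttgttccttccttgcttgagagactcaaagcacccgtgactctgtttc
Peg13: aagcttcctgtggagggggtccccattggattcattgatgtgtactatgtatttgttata
Malat1: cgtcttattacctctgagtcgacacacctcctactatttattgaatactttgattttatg
Firre: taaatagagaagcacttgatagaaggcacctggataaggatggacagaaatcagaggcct

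Peg13, an RNA expressed from the paternal allele in brain, read 14.96 in cortex, 15.08 in hippocampus and 15.35 in ventral telencephalon. The cultures read 5.83, 6.28 and 6.99 as lowest, median and highest, 448-fold lower by its single probe. H19, expressed from the maternal allele, read 10.45, 11.49 and 11.69 against 5.81 to 6.81, 26.5-fold lower, and all 6 of its probes were called. Of 21 imprinted genes tested 3 were called lower, H19, Mest (6.13-fold, 1 of 3 probes) and Plagl1 (23.3-fold, 2 of 4 probes), and 0 higher, with a median of 0.37. Peg13 is not on that list, and with the mean of the passing probes 1 of the 21 was lower, Mest and Plagl1 being lost. Meg3 was higher by 2.16 (limma adjusted p = 0.015) and Nnat lower, at -1.82 (adjusted p = 0.014), both short of the rule.

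Malat1, an abundant nuclear RNA, read 8.41, 8.38 and 8.21 in the tissues and 9.91, 10.75 and 11.80 as lowest, median and highest culture, 5.74-fold higher. The cultures of slide 2 read above those of slide 3, with means of 11.57 and 10.14. Firre, an X-linked nuclear RNA, read 7.02 to 7.82 against 9.47 to 11.34, 7.14-fold higher by 1 of 2 probes, with slide means of 10.89 and 9.76. The other Firre probe was higher without overlap but just short of the rule, at 7.52 to 7.71 against 8.65 to 9.63. Kcnq1ot1, not called, had slide means of 10.67 and 9.05. Xist was called by both of its probes, and a row that the array files name XIST, kept apart by its spelling, had means of 13.42 in the tissues and 4.62 in the cultures. Of the protein genes outside the lists with single probes, Prim2, a DNA primase subunit, read 11.24 to 11.52 in the tissues and 6.57 to 7.54 in the cultures, 17.4-fold lower. Hprt, of purine salvage and singled out after its values were seen, read 12.21 to 12.62 against 8.31 to 9.58, 12.3-fold lower.

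**Figure D5:**
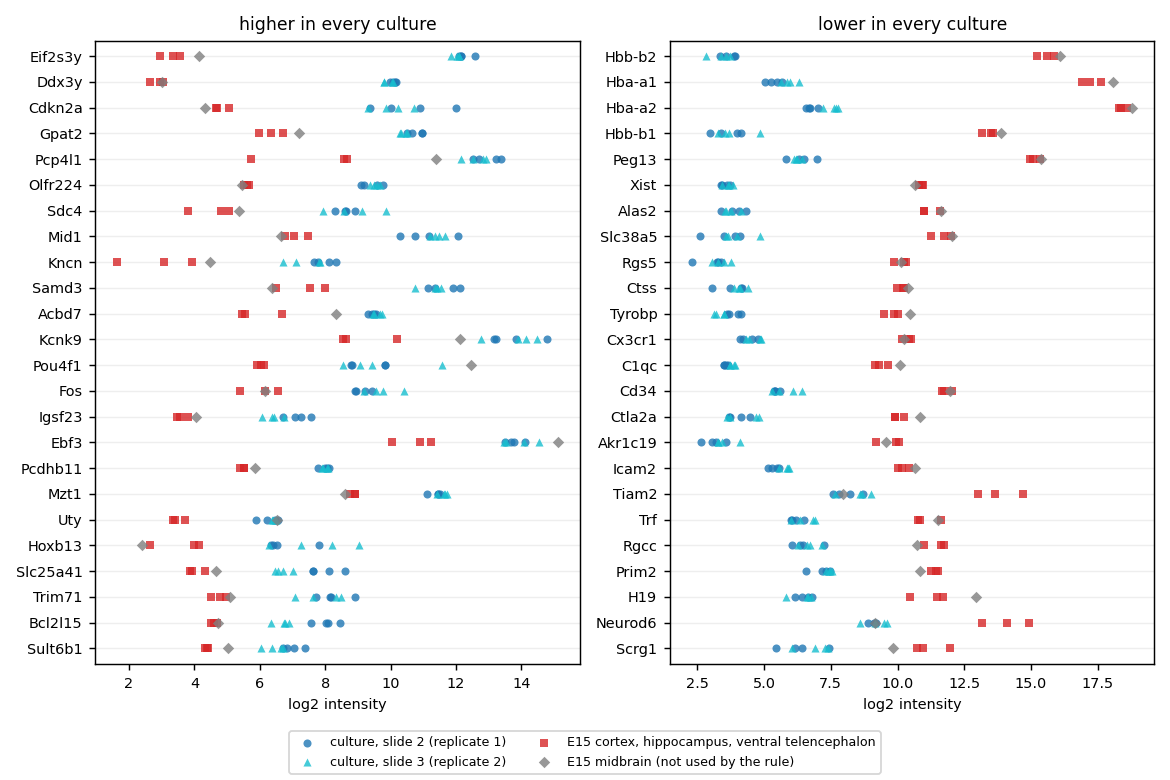
Log2 intensity on each array of the genes with the largest gaps, higher (left) and lower (right) in every culture, with symbols as in the plot of lists. The 8 cultures and the 3 telencephalon arrays do not overlap for any of these genes, as the rule requires, and midbrain lay within the culture range for Tiam2, Neurod6 and Uty and above it for Pou4f1 and Ebf3.

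The 8 cultures were not uniform for the called genes. In 151 of the 807 the 4 culture group means spanned more than 1 log2, and in 71 the means of slides 2 and 3 differed by more than 1. Neither count was made over all genes tested, so they do not set the called genes apart from the rest. Npy spanned most among the named genes, with means of 8.97 in WiBi_0-11, 8.17 in WiBi_0-16, 6.33 in CHIR_11-16 and 4.82 in CHIR_8-16. Pou4f1 ran the other way, with 8.67 in WiBi_0-11, 9.64 in CHIR_11-16 and its highest mean in CHIR_8-16. Cdkn2a was lowest in WiBi_0-16 (9.35) and highest in CHIR_8-16 (11.12). Malat1, Firre, Foxa2 and Sst were among the genes whose slide means differed by more than 1. For Foxa2 and Sst they were 5.26 and 6.90 on slide 2 and 6.83 and 8.32 on slide 3. These are descriptions of 2 arrays a group.

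Taken one group at a time against the 3 telencephalon arrays, 577 genes were at least 1 log2 higher and 918 lower in WiBi_0-11, 576 and 909 in CHIR_8-16, 488 and 887 in CHIR_11-16, and 650 and 1128 in WiBi_0-16. Taken one tissue at a time, the 8 cultures were at least 1 log2 higher for 1004 genes and lower for 1075 against cortex, 891 and 1149 against hippocampus, and 527 and 981 against ventral telencephalon. Against midbrain the counts were 515 and 1281. Each of these counts rests on 1 tissue array, so the order of the regions has no replicate check.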

How the data were processed

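RNA of 12 mouse samples was hybridised, as Cy3-labelled cRNA, to single-colour Agilent arrays with 60-base probes. Scanner intensity came from Agilent Feature Extraction, version 10.7.3.1 per the file headers and 9.1 per the submitters' processing notes, which also name limma. The deposited series table holds log2 intensity values that the authors normalized, with medians of 6.18 to 6.22 per array; background treatment is not given in the sources used here. Each column correlated at 0.989 to 0.994 with the scanner values of its own array, its best match, and 0 pairs of arrays were identical.

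Of 55681 non-control probes, those well above background on all 8 cultures or all 3 telencephalon arrays were kept, and the brightest stood for each of 23839 genes. Probes were named by accession (28026 through the culture files, 41 through the embryo files), by current (1950) or older (362) symbol, or as in the file (25302). A gene was called when all cultures lay at least 1 log2 beyond all telencephalon arrays, which is a description and not a test. Separately, limma 3.58.1 (R 4.3.3) compared the means with slide as a random block (correlation 0.277) and Benjamini-Hochberg adjustment over all genes; the tissue group pools 3 regions, so its spread is between regions. All adjusted p-values in the text are from that fit. The scripts were tested on simulated data. "At least" folds set the brighter mean against the higher of the dim value and the lowest well-above-background value on that array, for each array that was dim. Folds are of mean log2 values, and differences are culture minus telencephalon.

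Named genes were the 12 largest gaps each way measured on all 11 arrays, the 12 largest with the lower side not above background, up to 4 called members a list each way, and 24 genes named whatever their result; some of these are not reported here. The arrays, the 53 lists and these rules were chosen with earlier results of these data known. Alternatives were other signals, scalings, filters, probe rules, slides and gaps, and leaving out each array. The normexp setting used the median signal and not the mean, since the culture files hold no mean signal. The number of arrays limits the precision.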

Additional observations from a re-analysis of the deposited data

Results flagged for a closer look

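Among the 53 list means and the named genes with the largest gaps, 3 genes had 1 culture array far from the other 7. Eif2s3y read 12.58 in WiBi_0-16 replicate 1 (median of the 8 cultures 12.11). Pou4f1 read 11.57 in CHIR_8-16 replicate 2 (median 9.26). Prim2 read 6.57 in WiBi_0-16 replicate 1 (median 7.38). Chance flags about 1 in 20 such groups, and no gene list had an array set apart in this way.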

How the results depend on the processing

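No paired analysis was possible because the tissue arrays carry no replicate numbers shared with the cultures. With the scanner's processed signal 378 genes were higher, with the cultures of slide 2 alone 649 higher and 940 lower, with those of slide 3 alone 545 higher, and with midbrain among the tissues 155 higher. Requiring signal on all 11 arrays left 267 lower, since genes dim in the cultures drop out, among them most blood, microglial, endothelial and pericyte ones (2 of 4, 3 of 7, 4 of 10 and 1 of 7 tested were then lower). Gaps of 0, 0.5 and 2 log2 gave 3632, 874 and 41 higher and 3240, 1118 and 206 lower. Leaving out 1 array gave 241 to 601 higher and 581 to 794 lower, the highest both without ventral telencephalon. Dropping an array, or keeping 1 culture slide, can only keep or widen the gap of a given probe. These counts could therefore hardly fall, and they are no check on the calls. The limma count was 8133 without the block, 6906 with 1 mean per group, and 8770 and 9288 with slide 2 or slide 3 alone, where no block can be set; with 1 array left out it was 2740 to 4238. None of the 146 named called genes was called the opposite way under the value, filter, slide and array settings. Under the filter, slide and array settings the values of a probe do not change, so for a given probe that outcome was fixed by the rule. Normexp and quantile scaling kept 113 of the 146 and midbrain among the tissues 99.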
